A study of Mus musculus with 46 samples.

Results

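Nr2f2-detected oriens-lacunosum moleculare (OLM) interneurons were set against Nr2f2-undetected ones. A cell counted as detected if its library held at least 1 read of Nr2f2 and as undetected if it held 0. By this rule 27 of the 46 profiled cells were detected and 19 were undetected. The 4 groups were 16 detected and 7 undetected cells from an Htr3a-Cre driver line, and 11 detected and 12 undetected cells from an Sst-Cre driver line. The sides were chosen by measured Nr2f2 reads, so Nr2f2 values are a description, and every other gene is described without a test.

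OLM interneurons have their cell bodies in the hippocampal stratum oriens and send axons to the distal dendrites of pyramidal cells. The cells came from mice at postnatal day 21 to 30, and the cytosol of each was drawn into a patch pipette, so RNA left behind in the cell was not sampled. The Htr3a line labels cells whose precursors or adult forms used the promoter of a serotonin receptor subunit, and the Sst line does so for the somatostatin promoter; each library is 1 cell and no animal is named. Cells of a side are therefore not replicates of a condition, and SDs below describe the spread between cells.

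Nr2f2 encodes COUP-TFII, an orphan nuclear receptor that binds repeats of the half-site AGGTCA and represses many of its targets through corepressors. In the embryonic ventral forebrain it is enriched in the caudal ganglionic eminence (CGE), guides interneurons that migrate caudally, and is also found in part of the medial ganglionic eminence (MGE). In the adult hippocampus it marks subsets of interneurons, and outside neurons it is known from venous endothelium.

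Nr2f2 itself (ENSMUSG00000030551, GRCm38 chr7:70351944-70366735, minus strand, protein-coding) was read at very different levels within the detected side. In the Htr3a line its level in detected cells was 0.102 CPM at the lowest, 54.6 at the median and 522 at the highest (mean log2(CPM + 1) 4.74 ± 2.74, SD, 16 cells). CPM is reads per 1000000 reads assigned to genes in that cell. In the Sst line it was 0.106, 37.4 and 172 CPM (4.29 ± 2.46, 11 cells). Both lines thus span a trace to a strong signal, and 12 of 16 and 7 of 11 detected cells reached 10 CPM. The detected share was 69.6% in the Htr3a line (95% Clopper-Pearson interval 47.1 to 86.8) and 47.8% in the Sst line (26.8 to 69.4), and these intervals overlap. They cover counting error only, and reads without molecular identifiers are not independent molecules.

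Just inside the threshold lay Htr3a line cells 4 and 22 with 1 Nr2f2 read each, and Htr3a line cell 5 and Sst line cell 1 with 3 reads each. Next came Sst line cell 6 (16 reads), Htr3a line cell 19 (30), Sst line cell 9 (36) and Sst line cell 7 (138), the last of the 8 detected cells under 10 CPM. The 19 cells just outside had 0 reads, where 3 reads would have been 0.0956 to 0.884 CPM. At the other end, Htr3a line cell 6 held 8696 reads and Sst line cell 3 held 3060. An Nr2f2 value of 0 therefore limits the reads in the pipette sample and not the cell's use of the gene. After thinning every library to 3000000 reads, 15 cells of the Htr3a line and 10 of the Sst line still had an Nr2f2 read. These counts can vary with the draw. The chance of a read at that depth was 0.334, 0.306 and 0.509 for Htr3a line cells 4, 22 and 5, and 0.286 for Sst line cell 1. The gene overlaps B130024G19Rik on the plus strand, which is not analysed here. No source used here states the strand setting, and reads in the overlap cannot be told apart. Of the 8550 words of 31 bases in Nr2f2 transcripts, 0.901% also occur in other genes, and 39 words are shared with its paralog Nr2f1.

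Detected cells had more genes read, which bears on every comparison that follows. With Nr2f2 left out, detected cells of the Htr3a line had 3349 genes with a read at the lowest, 8341 at the median and 12692 at the highest, against 4064, 6629 and 8203 in undetected cells. In the Sst line the values were 5395, 7107 and 8724 in detected cells, against 3225, 5441 and 8774 in undetected cells. The ranges overlap in both lines, and the medians differ by 1712 and 1666 genes. At an expected depth of 3000000 reads the medians were 7985.5 in detected cells and 6144 in undetected cells of the Htr3a line, and 6795 and 5198 in those of the Sst line. Sequencing depth did not move the same way in both lines. Median total reads were 16254477.5 in detected and 13076111 in undetected cells of the Htr3a line, and 16251901 in detected and 16991029 in undetected cells of the Sst line.

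Of the 12 cells with the most genes read, 11 were detected, and of the 12 with the fewest, 3 were. The level of Nr2f2 did not follow genes read in the same way. The cell with the most Nr2f2, Htr3a line cell 6, had the fewest genes read of all detected cells. Htr3a-line cells had median genes read of 8341 in the 12 cells at or above 10 CPM, 7764 in the 4 detected cells below it and 6629 in undetected cells. Sst-line medians were 6689 in the 7 cells at or above 10 CPM, 7812 in the 4 detected cells below it and 5441 in undetected cells, so the order of the detected tiers differs between the lines. The part of library complexity in the detection of Nr2f2 was not tested. Medians of gene lists with genes read as a covariate are given beside those without it, and likewise for the genes with the widest differences.

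**Figure D1:**
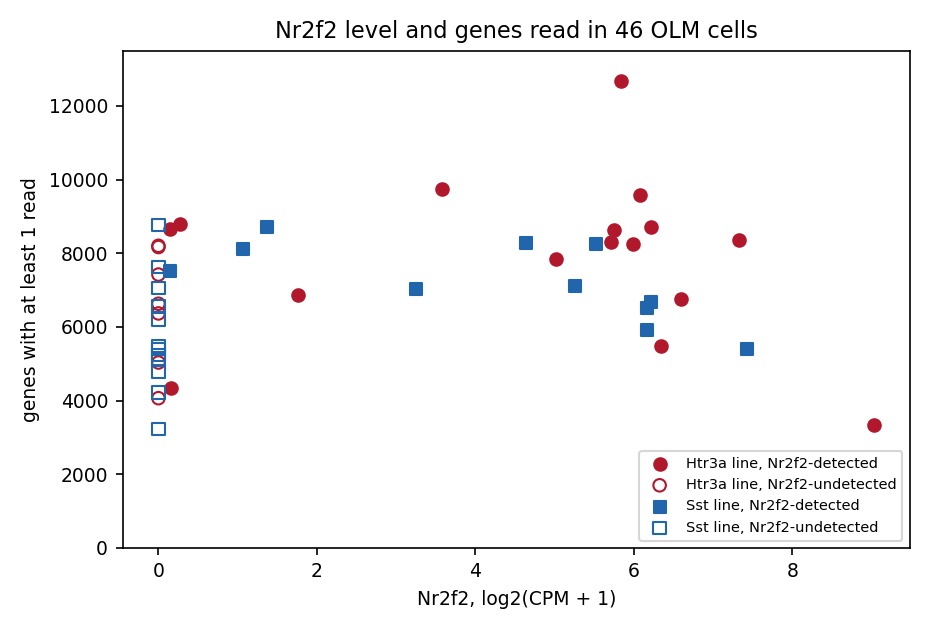
Nr2f2 level as log2(CPM + 1) (x axis) against the number of genes with at least 1 read (y axis) in each of the 46 cells. Filled points are Nr2f2-detected and open points Nr2f2-undetected cells, in red circles for the Htr3a line and blue squares for the Sst line; the open points stand at 0 between 3225 and 8774 genes, and the highest Nr2f2 level belongs to a cell with 3349 genes.

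The label OLM was checked against marker genes. Sst, the somatostatin peptide, was read in all 46 cells, at 4545 CPM or more in detected and 4231 or more in undetected cells of the Htr3a line, and at 1888 or more in detected and 1274 or more in undetected cells of the Sst line. Gad1 and Gad2, which make GABA, and Crhbp, the corticotropin-releasing hormone binding protein, also had reads in every cell. Htr3a line cell 4, on the detected side, held 4 Gad1 reads and Htr3a line cell 20, on the undetected side, held 24, and values without them are given where they matter. Chrna2, the nicotinic subunit that marks OLM cells, was sparse on both sides. It was read in 7 of 16 detected and 3 of 7 undetected cells of the Htr3a line, and in 1 of 11 detected and 5 of 12 undetected cells of the Sst line. Libraries held 3391829 to 31386369 reads, and 0 of 1035 pairs of libraries were identical.

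Most genes were higher in detected cells. For each of the 11195 genes whose mean log2(CPM + 1) reached 0.5, the difference is the mean over detected cells minus the mean over undetected cells. Its median over genes was 0.61 in the Htr3a line, 0.51 in the Sst line and 0.58 pooled. The added 1 shrinks differences of low genes, while cells at 0 can widen them. A difference is therefore not the fold of reads summed over a side, and can be larger or smaller than it. A difference of at least 1 was met by 35.5% of genes in the Htr3a line, 32.9% in the Sst line and 30% pooled. A difference of -1 or lower was met by 7.42%, 6.06% and 1.69%. Both lines were higher by at least 1 for 13.5% of genes and lower by at least 1 for 0.598%. Above 0 in both lines were 50.9% of genes, and below 0 in both were 8.97%.

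These medians depend on the setting. The Htr3a-line median was 0.33 without cell 20, 0.37 with DESeq2's poscounts size factors, 0.37 with cells matched on genes read and 0.37 with the microglial level as a covariate, which was chosen after seeing the data. The Sst-line median was 0.23 with 10 CPM of Nr2f2 as the threshold. A pseudocount of 10 in place of 1 gave 0.26, 0.20 and 0.23 in the Htr3a line, the Sst line and pooled. With no expression minimum they were 0.28, 0.19 and 0.28.

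With genes read as a covariate, the medians were 0.19, 0.05 and 0.12. The shares higher by at least 1 were then 24.2%, 19.5% and 15.2%, and the shares lower by at least 1 were 16%, 17.6% and 8.82%. Both lines were then higher by at least 1 for 5.35% and lower for 3.28%, and above 0 for 29.9% and below 0 for 21.7%. The shift was smaller at the top of the expression range without the covariate. Genes with a mean of 4 to 6 had a pooled median of 0.87, and genes with a mean of 8 or more had 0.24.

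**Figure D2:**
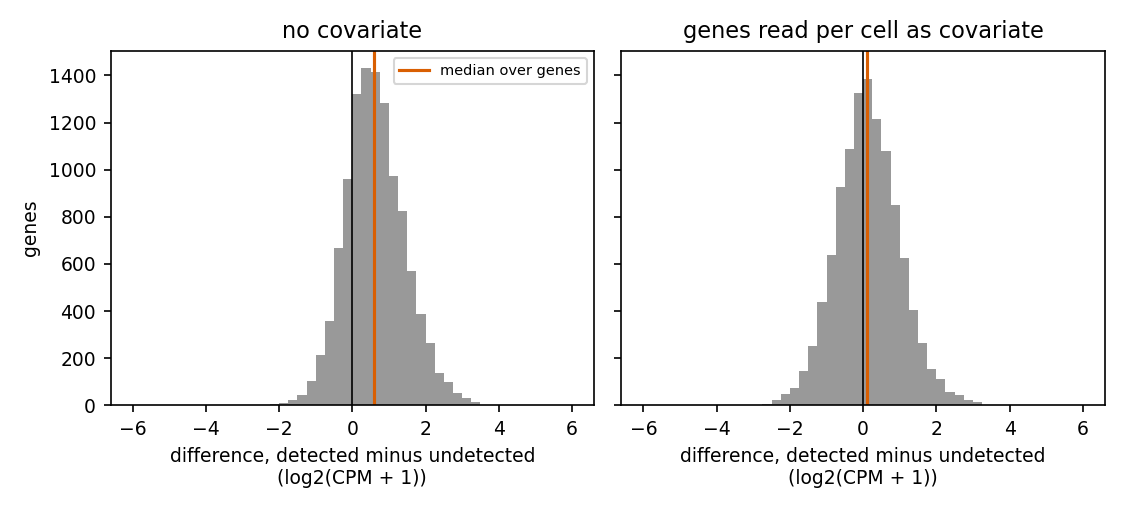
Number of genes (y axis) by pooled difference, Nr2f2-detected minus Nr2f2-undetected, in log2(CPM + 1) (x axis), for 11195 genes. The median, drawn in orange, lies at 0.58 without a covariate (left) and at 0.12 with genes read per cell as a covariate (right).

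Few genes were lower in detected cells in both lines, and Oxsr1 led them. Of the 10003 genes with reads in at least 12 cells, 3616 kept 1 sign in both lines, pooled, in summed CPM and in the share of cells with a read, after sex-linked, predicted and pseudogene names were left out. Of these, 3208 were higher and 408 lower in detected cells. The 12 lowest and the 12 highest by the within-line difference nearer 0 are picked for size, so their sizes include chance. The 12 lowest were Oxsr1, Rras, Prpf3, Nup214, Unc5c, Zfp317, Msra, Eya1, Mblac2, PISD, Rgs7 and Unc13b, with pooled differences of -3.21 to -1.48.

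Oxsr1 encodes a kinase that responds to osmotic and oxidative stress and acts on chloride cotransporters. Across the Htr3a line it was at 0, 0.0284 and 362 CPM (lowest, median, highest) in detected cells, against 7.11, 42.7 and 90.8 in undetected cells. It was read in 8 of 16 detected and 7 of 7 undetected cells. Across the Sst line it was at 0, 0 and 96.1 CPM in detected cells, against 0, 65.8 and 232 in undetected cells, with reads in 2 of 11 detected and 9 of 12 undetected cells. In the Htr3a line 8 detected cells had no Oxsr1 read while every undetected cell had some, yet the highest value of that line belongs to a detected cell. The differences were -3.34 and -3.42, and with the covariate -3.43 and -4.22. In reads summed over a side the log2 ratio was -0.48 in the Htr3a line and -2.26 in the Sst line. Among the 8 detected cells under 10 CPM of Nr2f2, 1 had an Oxsr1 read, against 9 of the 19 cells above it.

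Eya1, a phosphatase and transcription coactivator of early development, was lower above all in the Sst line. There it was at 0, 0 and 303 CPM in detected cells, against 0, 194 and 763 in undetected cells. It was read in 4 of 11 detected and 11 of 12 undetected cells. Its Htr3a-line values were 0, 51.3 and 630 CPM in detected cells, against 2.52, 115 and 679 in undetected cells, with reads in 10 of 16 and 7 of 7. The groups overlap in both lines, but more widely in the Htr3a line. The differences were -4.86 in the Sst line (-5.94 with the covariate, -5.49 to -4.62 with each cell left out) and -1.63 in the Htr3a line (-1.07 without Htr3a line cell 8). Whether the lines differ in this was not tested.

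The other genes of this group varied in how many cells had reads. Unc5c, a netrin receptor used in axon guidance, was read in 10 of 16 detected and 7 of 7 undetected cells of the Htr3a line and in 7 of 11 detected and 9 of 12 undetected cells of the Sst line (-2.50 and -1.81). Rgs7, a regulator of G-protein signalling in neurons, was at -1.54 and -2.15, and at -2.54 in the Htr3a line without cell 20. Unc13b, a vesicle priming factor, was at -1.50 and -1.69. Rras, a small GTPase, was at -2.44 and -2.04 with reads in 5 detected and 8 undetected cells over both lines. Prpf3, a splicing factor, was at -1.99 and -3.02, and at -1.07 in the Htr3a line without cell 20. Nup214, a nuclear pore protein, was at -1.96 and -1.92, and at -1.28 in the Htr3a line without cell 21. With the covariate all 12 stayed below 0 in both lines, and 11 of 12 were at -1 or lower in the Sst line, where the exception was Mblac2 at -0.46. These genes were picked for size in the same cells, so this describes them and is no support. The direction is less firm for the threshold. With 10 CPM of Nr2f2 in place of 1 read, Msra turned positive in both lines, Prpf3 in the Htr3a line and Mblac2 in the Sst line.

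The 12 highest genes were Slc5a5, Slc1a1, Cul2, Rpf2, Cyp51, Mpi, Dscr3, Capn7, Ddx56, Ap1b1, Fam134b and Mrpl10, with pooled differences of 2.99 to 3.65. Slc1a1 encodes a neuronal glutamate transporter. It was at 0, 117 and 377 CPM in detected cells of the Htr3a line, against 0, 1.89 and 281 in undetected cells. Its Sst-line values were 44.3, 141 and 334 CPM in detected cells, against 0, 2.99 and 331 in undetected cells. The highest values of the sides are close, and the sides differ in how many cells had a strong signal: 14 of 16 detected and 2 of 7 undetected cells of the Htr3a line reached 10 CPM, as did 11 of 11 detected and 5 of 12 undetected cells of the Sst line. The differences were 3.38 and 4.16, and 2.92 and 4.04 with the covariate. By summed CPM the log2 ratios were 1.06 and 1.65.

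Slc5a5, the sodium iodide symporter of the thyroid, was read in 14 of 16 detected and 3 of 7 undetected cells of the Htr3a line, and in 11 of 11 detected and 6 of 12 undetected cells of the Sst line (3.66 and 3.71). Cul2, a ubiquitin ligase scaffold, was at 3.31 and 3.80. Mpi, a mannose phosphate isomerase, was at 4.32 and 3.21, and Cyp51, an enzyme of cholesterol synthesis, at 3.77 and 3.22. Rpf2, a ribosome assembly factor, was at 3.90 and 3.23, but it shares 12.9% of its 31-base words with the processed pseudogenes Gm19077 and Gm7733, so its counts are uncertain. The 12 were higher by at least 1 in both lines with the covariate too, with Htr3a-line values of 2.27 to 3.75 and Sst-line values of 1.30 to 4.46. They were picked for size in these same cells, so this describes them and is no support. Against a background in which 13.5% of genes are that much higher in both lines without the covariate and 5.35% with it, these 12 are the upper end of a wide shift.

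**Figure D3:**
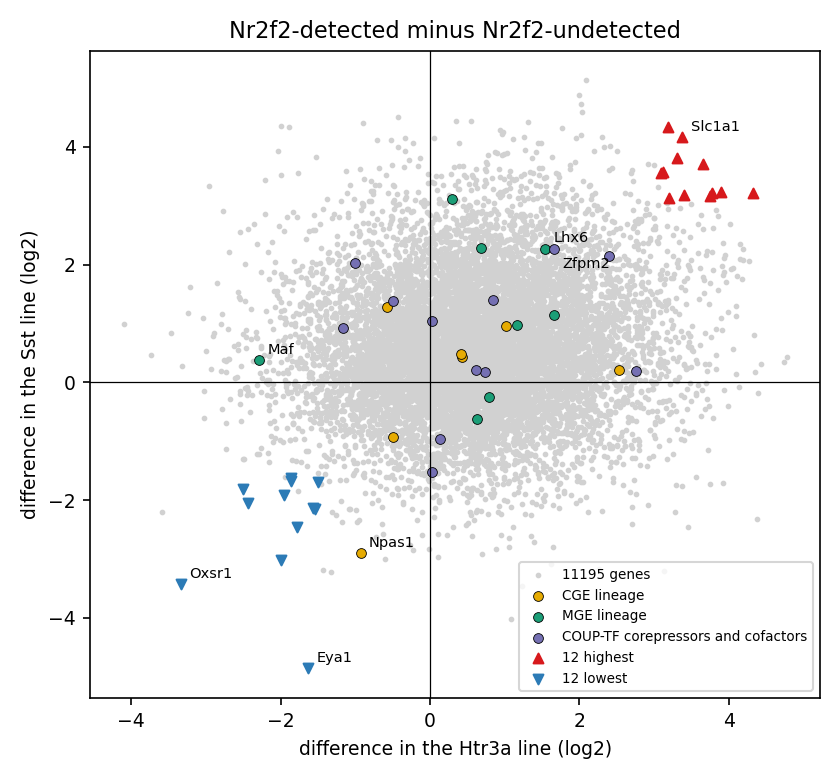
Difference in the Htr3a line (x axis) against difference in the Sst line (y axis), Nr2f2-detected minus Nr2f2-undetected, in log2(CPM + 1), for 11195 genes in grey. Coloured points are the CGE, MGE and cofactor lists, and triangles the 12 highest and 12 lowest genes; Oxsr1 stands at -3.34 and -3.42, Eya1 at -1.63 and -4.86, and the cloud is centred above 0 on both axes.

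COUP-TFII binds the half-site AGGTCA, and promoters of these 24 genes were searched for it. The search covered the 250 bases before each start in the RefSeq promoters of GRCm38.p6, on both strands, so that TGACCT counts as a match. Of the 12 highest genes, 9 matched a promoter entry, and 0 of their 10 promoters held the half-site. Of the 12 lowest, 9 matched, and 1 of 13 promoters held it, that of Rras. Of all 10975 promoters of genes above the expression minimum, 10.4% held it, and of all 32851 promoters, 14%. The windows of Rras, with its half-site in capitals 56 bases before the start, of Oxsr1, the gene that led the lower group, and of Slc1a1, from the higher group, are shown to let them be compared. They are chr7:45019347-45019596 (plus strand), chr9:119322428-119322677 (minus strand) and chr19:28834885-28835134 (plus strand), written in the direction of transcription.
Rras: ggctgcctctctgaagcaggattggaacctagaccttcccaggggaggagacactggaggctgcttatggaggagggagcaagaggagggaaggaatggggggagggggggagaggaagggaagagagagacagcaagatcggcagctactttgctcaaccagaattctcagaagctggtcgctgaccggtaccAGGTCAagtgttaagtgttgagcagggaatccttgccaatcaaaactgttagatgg
Oxsr1: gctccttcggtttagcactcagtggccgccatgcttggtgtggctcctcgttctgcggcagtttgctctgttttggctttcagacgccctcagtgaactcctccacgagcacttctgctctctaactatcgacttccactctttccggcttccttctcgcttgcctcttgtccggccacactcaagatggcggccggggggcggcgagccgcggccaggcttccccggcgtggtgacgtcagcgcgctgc
Slc1a1: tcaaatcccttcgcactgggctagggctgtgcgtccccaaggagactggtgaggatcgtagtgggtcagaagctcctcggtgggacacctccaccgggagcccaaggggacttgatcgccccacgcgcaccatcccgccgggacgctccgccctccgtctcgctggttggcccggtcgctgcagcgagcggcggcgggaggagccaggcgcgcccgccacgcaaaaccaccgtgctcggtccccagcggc
No match says only that these letters are not in the window, and a match is not a binding site.

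COUP-TF family members did not follow Nr2f2 as a group. Of 11 listed nuclear receptors 8 were above the expression minimum, of which 3 were higher and 2 lower in both lines, with medians of 0.25 in the Htr3a line and 0.03 in the Sst line (-0.09 and -0.59 with the covariate). The median of all genes was 0.61 and 0.51 (0.19 and 0.05 with the covariate), and 50.9% of all genes were higher and 8.97% lower in both lines. Nr2f1 encodes COUP-TFI, the closest relative of COUP-TFII. It was at 0, 2.49 and 333 CPM in detected cells of the Htr3a line, against 0, 16.5 and 76.5 in undetected cells, and at 0, 0 and 135 CPM in detected cells of the Sst line, against 0, 0.994 and 113 in undetected cells. The sides overlap almost fully. Its differences of -0.66 and -0.30 turned to 0.45 and 0.59 by summed CPM, and ranged from -1.19 to -0.15 and from -0.81 to 0.11 with single cells left out. Nr2f1 was read in 10 of 16 detected cells (62.5%, 35.4 to 84.8) and 4 of 7 undetected cells (57.1%, 18.4 to 90.1) of the Htr3a line. Sst-line counts were 4 of 11 detected cells (36.4%, 10.9 to 69.2) and 8 of 12 undetected cells (66.7%, 34.9 to 90.1), so the order of the sides differs between the lines and the intervals overlap in both. Nr2f6, also called EAR2, was at 1.94 and 1.14, but at -0.64 in the Htr3a line with 10 CPM of Nr2f2 as the threshold and at 0.60 in the Sst line without cell 6. Nr2c1, a testicular receptor, was at 0.40 and -1.71.

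Corepressors and cofactors of COUP-TFs were on the higher side without the covariate, as most genes were. Of 14 listed, 12 were above the minimum, with 7 higher and 0 lower in both lines, where 50.9% of all genes were higher and 8.97% lower. The list's medians were 0.37 and 0.98, and -0.01 and -0.36 with the covariate. Zfpm2 encodes FOG2, a zinc finger partner of COUP-TFII. It was read in 6 of 16 detected and 1 of 7 undetected cells of the Htr3a line, at up to 657 CPM in detected and 42.9 in undetected cells. In the Sst line it was read in 7 of 11 detected and 1 of 12 undetected cells, at up to 219 and 80.9 CPM. The differences were 1.67 and 2.26 (2.17 and 2.71 with the covariate, 1.20 to 2.44 and 1.77 to 2.79 with each cell left out). Of the 19 cells at or above 10 CPM of Nr2f2, 11 had a Zfpm2 read, against 2 of the 8 detected cells below it and 2 of the 19 undetected cells.

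Ncoa1, a nuclear receptor coactivator, was at 5.42, 62.9 and 231 CPM in detected cells of the Htr3a line, against 0, 17.5 and 142 in undetected cells (2.39). Sst-line values were 0, 61.7 and 218 CPM in detected cells, against 0, 3.36 and 253 in undetected cells (2.14). Medians were higher in detected cells of both lines, while ranges overlap. Ncor1, a corepressor, was at 2.75 in the Htr3a line and 0.19 in the Sst line, where 10 of 11 detected and 11 of 12 undetected cells had reads. Of 17 genes of guidance and Notch signalling linked to COUP-TFII in vessels and brain, 7 were above the minimum. In both lines 2 were higher and 1 lower, against 50.9% and 8.97% of all genes, with medians of -0.18 and 0.58 (-0.28 and 0.36 with the covariate). Nrp2, a semaphorin receptor described as a COUP-TFII target in mouse interneurons, was read in 8 of 27 detected and 2 of 19 undetected cells (0.26 and 0.55, but -0.12 in the Htr3a line without cell 3 and 0.21 in the Sst line without cell 7). Hey1, a Notch effector, was at 1.93 and 1.13, or 0.75 in the Sst line without cell 13, and at -0.87 by summed CPM there.

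CGE genes split, with Npas1 and Npas3 below 0 in both lines. Of 13 listed, 7 were above the minimum, 4 higher and 2 lower in both lines, where 50.9% of all genes were higher and 8.97% lower. The list's medians were 0.42 and 0.43 (-0.07 and 0.42 with the covariate). Npas1 encodes a transcription factor of cortical and hippocampal interneurons. Across the Sst line it was at 0, 192 and 494 CPM in detected cells, against 0, 401 and 735 in undetected cells. It was read in 7 of 11 detected and 11 of 12 undetected cells. Htr3a-line values were 0, 336 and 1109 CPM in detected cells, against 16.8, 170 and 523 in undetected cells, with reads in 13 of 16 and 7 of 7. The Sst-line difference of -2.90 (-3.24 with the covariate, -3.64 to -2.39 with each cell left out, -1.29 by summed CPM) came with a lower median and with 4 detected cells at 0. In the Htr3a line the difference was -0.93, or -0.49 without cell 6 and -1.47 without cell 20, while the detected median was the higher one and the summed CPM ratio was 0.17. There, Npas1 was read in 4 of 4 detected cells under 10 CPM of Nr2f2 and in 9 of 12 above.

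Npas3, a paralog of Npas1, was at -0.49 and -0.94, and ranged from -1.07 to -0.07 and from -1.42 to -0.50 with single cells left out. Sp9, a zinc finger factor of ganglionic eminence interneurons, was at 1.02 and 0.95, and at 0.33 in the Htr3a line without cell 12. Synpr, a synaptic vesicle protein, was read in every cell (0.42 and 0.48, and -0.13 in the Htr3a line with DESeq2's poscounts size factors). Id2 was read in 11 of 16 detected and 2 of 7 undetected cells of the Htr3a line (mean log2(CPM + 1) 4.16 and 1.63). In the Sst line it was read in 6 of 11 detected and 6 of 12 undetected cells (3.41 and 3.21). Its pooled difference was -0.16 with the covariate. Several other CGE genes were sparse. Prox1, Sp8, Egfr and Vip each had reads in 1 cell, the same detected one, Htr3a line cell 10, which had the most genes read (12692). That cell also held 12083 CPM of blood genes and 409 CPM of GABAergic genes, against medians of 0 and 4102 CPM in detected cells of its line. Htr3a itself was read in 3 of 16 detected and 2 of 7 undetected cells of its own line, and in 2 of 11 detected and 0 of 12 undetected cells of the Sst line. Adarb2 was read in 4 of the 27 detected and 1 of the 19 undetected cells. Htr3b, which pairs with Htr3a in the serotonin receptor, was read in 8 of 16 detected cells (50%, 24.7 to 75.3) and 3 of 7 undetected cells (42.9%, 9.90 to 81.6) of the Htr3a line, and in 0 of 11 detected and 0 of 12 undetected cells of the Sst line.

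Among MGE genes, Lhx6, Maf and Satb1 were read in all 27 detected cells. In the 19 undetected cells Lhx6 was read in 12, Maf in 18 and Satb1 in 19. Of 10 listed, 8 were above the minimum, 5 higher and 0 lower in both lines, where 50.9% of all genes were higher and 8.97% lower. The list's medians were 0.74 and 1.06, against 0.61 and 0.51 for all genes (0.58 and 0.27 with the covariate, against 0.19 and 0.05). Lhx6 encodes the homeodomain factor that specifies MGE interneurons. It was read in 27 of 27 detected cells (100%, 87.2 to 100) and in 12 of 19 undetected cells (63.2%, 38.4 to 83.7). Across the Htr3a line it was at 14.7, 119 and 326 CPM in detected cells, against 0, 108 and 403 in undetected cells. Its Sst-line values were 0.141, 94.4 and 512 CPM in detected cells, against 0, 71.7 and 267 in undetected cells. Medians of the sides are close in both lines and ranges overlap, while 7 undetected cells and 0 detected cells stood at 0. The differences were 1.54 and 2.27 (1.46 and 0.91 with the covariate), and 0.67 in the Htr3a line without cell 20, one of the cells with few Gad1 reads. By summed CPM the log2 ratios were -0.39 and 0.49.

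Maf, a transcription factor of MGE interneurons, was lower in the Htr3a line, at 0.541, 31.7 and 125 CPM in detected cells, against 10.8, 108 and 1359 in undetected cells (-2.28, and -1.44 without both cells of few Gad1 reads), and at 0.37 in the Sst line (-0.86 by summed CPM). Sox6, which acts after Lhx6, was at 1.17 and 0.98, or 0.51 in the Sst line without cell 8. Mef2c had mean log2(CPM + 1) of 3.62 in detected and 2.93 in undetected cells of the Htr3a line. Its Sst-line means were 4.43 and 2.15. Zeb2 had means of 5.09 and 3.43 in the Htr3a line and of 5.09 and 3.95 in the Sst line. By summed CPM the log2 ratio of Zeb2 was -0.60 in the Sst line. Satb1 was read in every cell and was at 0.79 in the Htr3a line, or -0.22 without cell 20, and -0.25 in the Sst line.

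**Figure D4:**
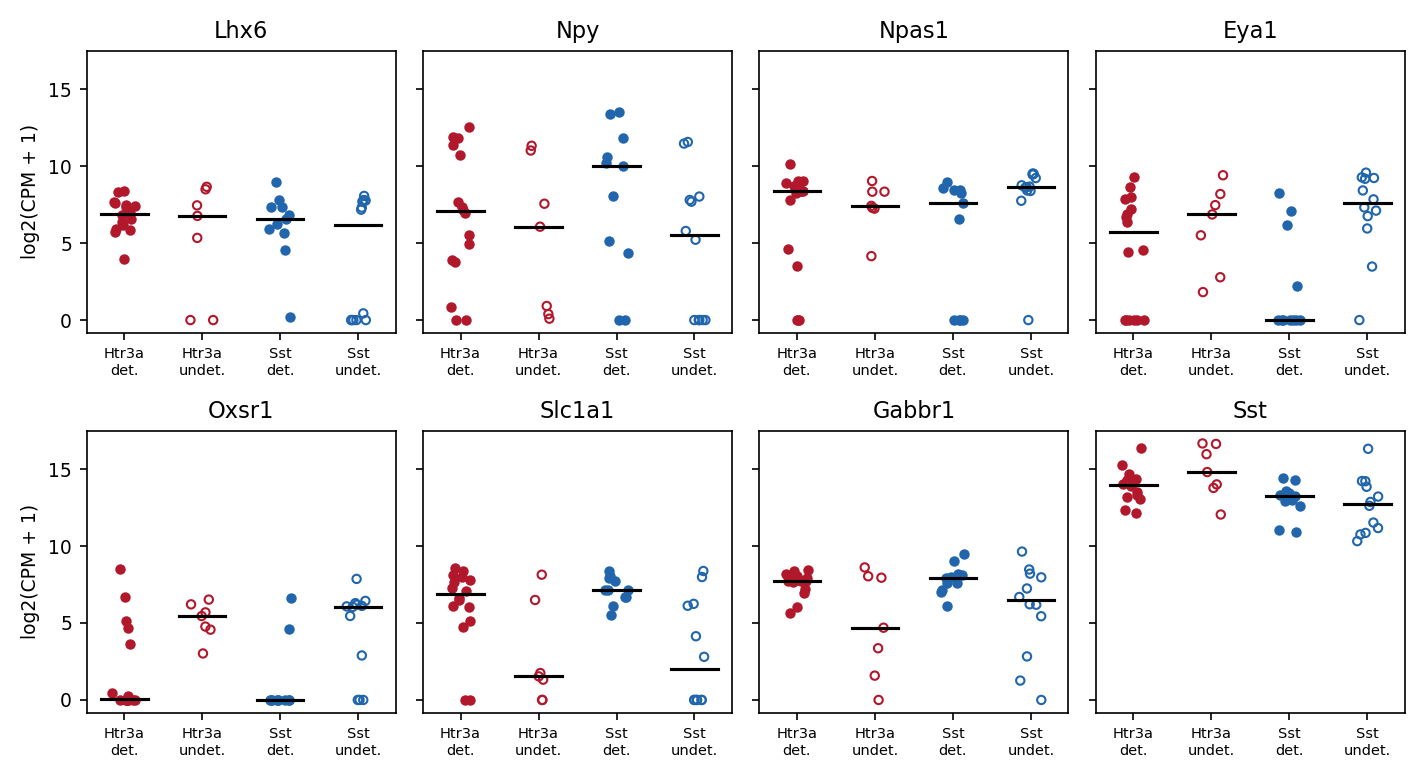
Level of 8 genes in each cell as log2(CPM + 1) (y axis), with Nr2f2-detected cells as filled points (det.) left of Nr2f2-undetected cells as open points (undet.) for the Htr3a line (red) and the Sst line (blue). Bars mark the median CPM on this scale; Lhx6 has 0 of 27 detected and 7 of 19 undetected cells at 0, and Oxsr1 has a bar near 0 in detected cells of both lines.

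OLM genes had no shared direction, and Npy had the widest difference among them in the Sst line. Of 10 listed, 9 were above the minimum, 4 higher and 1 lower in both lines, where 50.9% of all genes were higher and 8.97% lower. The list's medians were -0.01 and 0.47 (-0.43 and 0.29 with the covariate). Sst was at 4545, 16194 and 85165 CPM in detected cells of the Htr3a line, against 4231, 28653 and 103853 in undetected cells (-0.92, or -1.38 without cell 8). Sst-line values were 1888, 9726 and 22297 CPM in detected cells, against 1274, 6855 and 81651 in undetected cells (0.32). The sides overlap in both lines, and the direction is not shared. Npy, neuropeptide Y, was at 0, 1017 and 11796 CPM in detected cells of the Sst line, against 0, 45.2 and 3041 in undetected cells (3.12, 3.68 with the covariate, 2.56 to 3.91 with each cell left out). Htr3a-line values were 0, 133 and 5868 CPM in detected cells, against 0.0652, 66.0 and 2563 in undetected cells (1.32, or 0.45 without cell 23 and 2.32 without cell 12). It reached 10 CPM in 22 of 27 detected cells (81.5%, 61.9 to 93.7) and 11 of 19 undetected cells (57.9%, 33.5 to 79.7), and these intervals overlap. The SDs of Npy between cells, 4.26 to 4.92, are larger than either difference.

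Chrna2 was lower in detected cells of the Sst line (-1.68), where 0 of 11 detected and 3 of 12 undetected cells reached 10 CPM. Taking 3 cells as the limit that a count of 0 allows, 0 of 11 allows a share of up to 27.3% (28.5% by the Clopper-Pearson interval). In the Htr3a line the difference was -0.01, from -0.35 to 0.94 with single cells left out. Reln, a secreted matrix protein, was at -0.99 in the Htr3a line, or -0.42 without cell 6, and 0.76 in the Sst line, or 0.02 without cell 22. Crhbp was at 0.43 and 0.85, and at -0.51 in the Htr3a line without cell 20 and -0.10 there with poscounts size factors. Calb1, a calcium buffer listed with other interneuron classes, was read in 14 of 16 detected and 4 of 7 undetected cells of the Htr3a line (3.28), and in 7 of 11 detected and 7 of 12 undetected cells of the Sst line (0.77, or 0.30 without cell 3 and 1.31 without cell 8). Pvalb was read in 4 of 16 detected cells (25%, 7.27 to 52.4) and 2 of 7 undetected cells (28.6%, 3.67 to 71.0) of the Htr3a line, and in 7 of 11 detected cells (63.6%, 30.8 to 89.1) and 3 of 12 undetected cells (25%, 5.49 to 57.2) of the Sst line. The intervals overlap in both lines.

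Synaptic release and adhesion genes were mostly higher in detected cells, as most genes were. Of 18 vesicle release genes above the minimum, 14 were higher and 3 lower in both lines, with medians of 1.01 and 0.39 (0.58 and 0.27 with the covariate). Over all genes, 50.9% were higher and 8.97% lower in both lines. Stx1a, the plasma membrane SNARE syntaxin, was at 0, 26.8 and 143 CPM in detected cells of the Htr3a line, against 0, 0 and 82.4 in undetected cells (2.14). Across the Sst line it was at 0, 47.0 and 177 CPM in detected cells, against 0, 0 and 119 in undetected cells (3.36). Its median was above 0 in detected cells only. Syn2, synapsin 2, was read in every cell (1.49 and 1.57), with 0.45 in the Htr3a line without cell 20 and 0.93 in the Sst line without cell 20. Of 13 neurexins and adhesion genes, 7 were higher and 0 lower in both lines, a share higher near the 50.9% of all genes. Their medians were 0.51 and 1.67, or -0.09 and 0.70 with the covariate. Cntnap2, a neurexin-like adhesion protein, was read in 15 of 16 detected and 3 of 7 undetected cells of the Htr3a line and in 9 cells of each side of the Sst line (2.75 and 2.40).

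Receptor lists were mixed, and a few subunits stood high in both lines. Among glutamate-gated channel subunits, a smaller share was higher and a larger share lower in both lines than among all genes. Gria1 and Grin1, described here, are from the higher ones. The 16 glutamate-gated channel subunits split into 5 higher and 5 lower in both lines, against 50.9% and 8.97% of all genes. Their medians were -0.05 and 0.49 (-0.27 and 0.11 with the covariate). Gria1, an AMPA receptor subunit, was at 28.3, 201 and 904 CPM in detected cells of the Htr3a line, against 0, 215 and 399 in undetected cells (1.82, or 0.85 without cell 20). Its Sst-line values were 130, 284 and 1045 CPM in detected cells, against 0.303, 150 and 873 in undetected cells (1.90). The low tail of Gria1 was in undetected cells, and the upper ranges overlap. Grin1, the obligate NMDA receptor subunit, was at 1.45 and 1.95, or 0.51 in the Htr3a line without cell 20 and -0.34 there in summed CPM.

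Among 11 GABA receptor genes 6 were higher and 0 lower in both lines, against 50.9% and 8.97% of all genes, with medians of 0.99 and 0.33 (1.03 and -0.58 with the covariate). Gabbr1, a subunit of the metabotropic GABA receptor, was at 48.2, 210 and 353 CPM in detected cells of the Htr3a line, against 0, 24.9 and 390 in undetected cells (2.68). Sst-line values were 67.1, 242 and 729 CPM in detected cells, against 0, 87.7 and 797 in undetected cells (1.99). Every detected cell had at least 48.2 CPM, while undetected cells ran from 0 to as high as any detected cell. The differences with the covariate were 2.39 and 1.18. Htr1a, a serotonin receptor that inhibits the cells bearing it, was read in 8 of 16 detected and 0 of 7 undetected cells of the Htr3a line, where 0 of 7 allows a share of up to 42.9% by the limit of 3 cells, and in 5 of 11 detected and 1 of 12 undetected cells of the Sst line. It reached 10 CPM in 7 of 27 detected and 1 of 19 undetected cells.

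Sodium, potassium, and calcium and HCN channel lists had medians under the all-gene 0.61 in the Htr3a line. In the Sst line their medians were above the all-gene 0.51. Sodium channel genes had medians of 0.16 and 0.62 (5 of 7 higher in both lines), potassium channel genes 0.33 and 0.55 (8 of 21 higher and 3 lower in both lines), and calcium and HCN channel genes 0.45 and 0.64 (7 of 15 higher and 1 lower). Beside these counts, 50.9% of all genes were higher and 8.97% lower in both lines. Kcnq5, a potassium channel subunit, was lower in detected cells of both lines (-1.19 and -0.49, or -0.65 in the Htr3a line without cell 12 and -0.05 in the Sst line without cell 12). With the covariate the medians were -0.11 and -0.36 for sodium, 0.12 and -0.09 for potassium, and -0.07 and 0.05 for calcium and HCN channel genes. Acetylcholine receptor genes had medians of -0.06 and 0.30 (-0.49 and -0.40 with the covariate), with Chrna7, the alpha 7 nicotinic subunit, at -0.23 and -2.15, the first from -0.92 to 0.35 with single cells left out.

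Lists tied to activity, stress and housekeeping did not share one direction. Immediate early genes had medians of 0.28 and -0.10, 4 higher and 4 lower in both lines of 15. Heat shock and stress genes had 1.10 and 0.36, 6 higher and 0 lower of 10. Cytosolic ribosomal protein genes had 0.39 and 0.40, 11 higher and 1 lower of 22, and mitochondrially encoded genes 0.13 and -0.04, 3 higher and 2 lower of 13. Beside the counts of these 4 lists, 50.9% of all genes were higher and 8.97% lower in both lines. With the covariate the medians were -0.18 and -0.18 for immediate early, 0.54 and 0.11 for heat shock, -0.62 and -0.08 for ribosomal protein and -0.20 and -0.12 for mitochondrial genes. Ribosomal protein genes thus lay near the 50.9% of all genes higher in both lines without the covariate, and below 0 at the median with it.

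**Figure D5:**
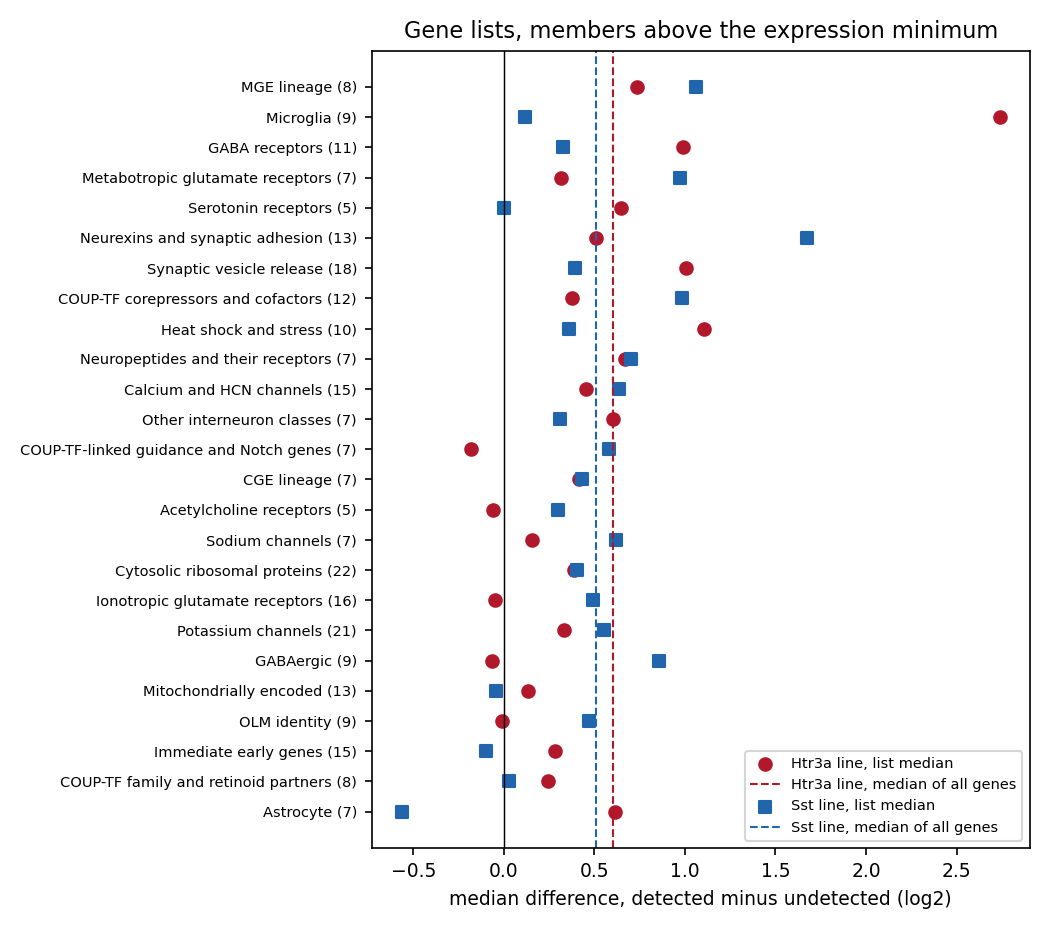
Median difference, Nr2f2-detected minus Nr2f2-undetected, in log2(CPM + 1) (x axis) for each gene list with at least 5 members above the expression minimum (y axis, number of such members in brackets), as red circles for the Htr3a line and blue squares for the Sst line. Dashed lines mark the median of all genes, 0.61 and 0.51; the microglial list stands at 2.74 in the Htr3a line and 0.12 in the Sst line.

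Microglial transcripts were higher in detected cells of the Htr3a line. The 9 microglial genes summed to 0, 943 and 8443 CPM in detected cells of the Htr3a line, against 0.590, 142 and 1462 in undetected cells. In the Sst line they summed to 88.2, 529 and 10876 CPM in detected cells, against 0.0536, 1200 and 8627 in undetected cells. All 9 were higher by at least 1 in detected cells of the Htr3a line, with a median of 2.74, and 0 were so in Sst-line cells, whose median was 0.12 (1.96 and -0.74 with the covariate). Of all genes, 35.5% and 32.9% were higher by at least 1 in the Htr3a line and the Sst line. Above 0 in both lines were 7 of the 9, against 50.9% of all genes. C1qa, a complement gene of microglia, was read in 11 of 16 detected and 2 of 7 undetected cells of the Htr3a line, and in 10 of 11 detected and 8 of 12 undetected cells of the Sst line. At 0 in every cell of a group was only Tmem119, in undetected cells of the Htr3a line. The part of microglial transcripts in the Htr3a-line differences was not tested.

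Endothelial genes, which matter here because vessels carry COUP-TFII, were at or near 0. The 9 genes had a median sum of 0 CPM in all 4 groups, with up to 13.5 CPM in detected and 0.295 in undetected cells of the Htr3a line, and up to 4.08 in detected and 41.1 in undetected cells of the Sst line. Cldn5, Flt1 and Cdh5 were at 0 in the detected and undetected cells of the Sst line and in the undetected cells of the Htr3a line, and Kdr and Tek were at 0 in all 4 groups. Mural and fibroblast genes had medians of 0.187 CPM or less. Their highest sums were 307 CPM in detected and 84.4 CPM in undetected cells of the Htr3a line, and 256 and 0.910 CPM in those of the Sst line. Oligodendrocyte genes summed to medians of 121 in detected and 114 CPM in undetected cells of the Htr3a line, and to 196 and 236 CPM in those of the Sst line. Their highest sums were 13314 CPM in detected cells (Htr3a line cell 4) and 1635 CPM in undetected cells of the Htr3a line, and 3744 and 5324 CPM in those of the Sst line. By median, astrocyte genes summed to 108 and 62.6 CPM in detected and undetected cells of the Htr3a line, and to 36.4 and 194 CPM in those of the Sst line. Glutamatergic genes summed to 40.2 and 59.3 CPM, and to 24.8 and 22.7 CPM, and Slc17a7, the vesicular transporter of pyramidal cells, was at 0 in 3 groups and read only in detected cells of the Htr3a line.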

How the data were processed

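RNA was measured in the cytosol of 46 single cells. Per the submitters' processing notes, Trimmomatic, STAR and featureCounts were used with GRCm38. No source used here gives their versions, the annotation or the strand setting. The deposited values are raw read counts per gene, by symbol (22800 genes) and by Ensembl identifier (22880 genes), and a deposited normalized signal, of which 100% of non-zero values equal the count divided by 1 factor per cell (0.144 to 2.09) within 0.1%. Libraries held 3391829 to 31386369 reads, and intervals cover counting error only.

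Counts by symbol were scaled to CPM and compared as log2(CPM + 1) means per side, within each line and pooled, over genes with a mean of at least 0.5. Each sample is 1 cell and no animal is named, so no test was run and no p-value is given. Clopper-Pearson intervals are at 95%. The per-gene calculation was tested on simulated data. The covariate fit is a linear fit of each gene on side, line and genes read. Matching paired undetected with detected cells of the same line by genes read. Pairs still differed by a median of 272 genes in the 7 pairs of the Htr3a line and 1317 in the 11 pairs of the Sst line, where matching left out 1 undetected cell alone.

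Genes were named from a pool, and not every member of it is described. The pool held Nr2f2, the measured members of the COUP-TF, CGE, MGE and OLM lists, and the 12 highest and 12 lowest genes described above. It also held up to 3 members of every other list by the same measure. Marker genes for co-detection and for other cell types were listed as well. Results of 4 listed genes are not reported here, while counts and medians of lists include them. Sides, members and lists were chosen with earlier results of these data known. Alternatives were another pseudocount, edgeR TMMwsp and DESeq2 poscounts size factors, the normalized table, thinning, other expression minimums and Nr2f2 thresholds, summed CPM, genes read as a covariate or for matching, and leaving out cells. Tools were R 4.3.3, edgeR 4.0.16, DESeq2 1.42.0, Python 3.11.15, numpy 2.4.6, scipy 1.17.1, pandas 2.3.3 and matplotlib 3.10.9. The edgeR and DESeq2 tools supplied size factors alone.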

Additional observations from a re-analysis of the deposited data

Results flagged for a closer look

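Among the 7 Nr2f2-undetected cells of the Htr3a line, 15 of the 38 values examined had 1 cell far from the other 6. Chance gives this in about 1 in 20 groups of normally distributed values, which sums with most cells at or near 0 are not, and the values share cells. Of summed marker levels, cell 12 had 1462 CPM of microglial genes, cell 21 had 1635 CPM of oligodendrocyte genes and cell 2 had 1985 CPM of genes of other interneuron classes. Cell 8 had 807 CPM of astrocyte, 139.8 CPM of oligodendrocyte precursor and 10.9 CPM of blood genes. Cell 1 had 84.4 CPM of mural and fibroblast genes, and cell 20 had 0.295 CPM of endothelial genes. Of single genes on the log2(CPM + 1) scale, Rpf2 was at 4.69 and Mpi at 6.68 in cell 23, Dscr3 at 7.46 in cell 2 and Fam134b at 3.95 in cell 20, each the high cell of the group. Msra, Mblac2 and Rgs7 were at 0 in cell 20, the low cell of the group.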

How the results depend on the processing

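The all-gene median stayed above 0 in both lines and pooled under every alternative run. Its Htr3a-line value was 0.61, 0.47 with TMMwsp and 0.33 to 0.78 with each cell left out, the lowest without cell 20. Its Sst-line value was 0.51, and 0.41 to 0.59 with each cell left out. The report gives its other larger moves. A pseudocount of 10 gave 12.4%, 10.8% and 6.17% of genes higher by at least 1 (Htr3a line, Sst line, pooled) and 2.82%, 1.74% and 0.268% lower by at least 1. With genes read as a covariate, 19.5% in the Sst line and 15.2% pooled were higher, and 16%, 17.6% and 8.82% lower. The share lower in the Htr3a line was 11.8% with poscounts, 15.3% with matching, 12.1% with the microglial level as a covariate, an alternative chosen after seeing the data, and 6.28% to 11.7% with each cell left out, the highest without Htr3a line cell 20. Pooled it was 2.89% with poscounts, 4.55% with matching and 3.22% with the microglial covariate. At 10 CPM of Nr2f2 the Sst line had 7 detected cells and 12.1% of genes lower, and pooled 2.89% were lower.

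Among differences of named genes of at least 1 in size, 32 values changed sign, and those of smaller differences are not listed here. At 10 CPM of Nr2f2 these were Prpf3 (0.026), Nr2f6 (-0.64), Sox6 (-0.42), Junb (-0.28), Fibcd1 (-0.34) and Msra (0.18) in the Htr3a line, Msra (0.43), Mblac2 (0.40) and Slc1a2 (0.28) in the Sst line, and Msra (0.48) and Sema3a (-0.18) pooled. At 5 reads it was Nr2f6 (-0.11) in the Htr3a line. With matching, Rxrb was at -0.83 in the Htr3a line and -0.049 pooled, and mt-Nd5 at -0.092 in the Htr3a line. With the covariate, Hdac3 (-0.40) and Gabra3 (-1.04) changed in the Sst line, Hspa5 (-0.024) in the Htr3a line, and Sema3a (-0.10), Id2 (-0.16) and Ier2 (-0.28) pooled. By summed CPM, Lhx6 (-0.39) and Grin1 (-0.34) changed in the Htr3a line, Hey1 (-0.87), Zeb2 (-0.60), Scn3b (-0.023) and Slc1a2 (0.28) in the Sst line, and Ncor1 (-0.18), Hey1 (-0.26), Zeb2 (-0.53) and Scn3b (-0.15) pooled. Hspa5 ranged from -0.038 to 1.66 in the Htr3a line with each cell left out. The cause was not tested.

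No paired analysis was possible because the replicate numbers only name cells in accession order and no test was run. An Nr2f2 count of 0 in 1 pipette sample limits reads, not expression, and 7 undetected cells of the Htr3a line set the precision there.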
